A study of Ovis aries with 12 samples.

Results

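Sheep oviduct epithelial cells sampled 5.5 h after oestradiol were compared with the same kind of cells sampled 1.5 h after oestradiol. The comparison used 6 of the 12 RNA-seq libraries of the series, 3 at each time, and was made over the 12025 of 18340 genes whose mean FPKM (fragments scaled by gene length and library depth, a level per length) over the 12 libraries was at least 1. Libraries were paired by the number from 1 to 3 that their titles carry.

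The cells were scraped from the mucosa of the ampulla, the wide part of the oviduct, after trypsin digestion. All groups were kept without serum and phenol red for 12 h, and oestradiol (E2) was then given at 10 nM. One group was taken at 0 h and the others after 1.5, 3.5 and 5.5 h, with 3 libraries each. No untreated cells of the later times were analysed here, so the time since oestradiol and the time in culture cannot be told apart. The labels do not say whether the numbers mark animals, cultures or days, so the tests below measure the spread between these libraries, which may be technical. They also give no age, breed or cycle stage, and each value is from a whole population of cells, in which fewer cells of a type and less RNA per cell cannot be told apart.

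Oestradiol acts in the oviduct through nuclear oestrogen receptors, ligand-activated transcription factors that bind DNA directly or through other factors. Some target genes respond early and pass back towards their starting level while others, such as the progesterone receptor gene, accumulate over longer times. A second ligand-activated factor, the aryl hydrocarbon receptor, drives the cytochrome P450 enzymes of family 1, which hydroxylate oestradiol, and induces TIPARP, an enzyme that in turn represses the receptor.

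The libraries held 48490974 to 79387070 counts, with 64304237, 55934646 and 60977554 at 1.5 h and 64345068, 61177909 and 49217628 at 5.5 h. The epithelial keratin gene KRT8 averaged 4454 FPKM at 1.5 h and 4501 FPKM at 5.5 h, and EPCAM, an epithelial adhesion molecule, 665 and 764 FPKM. PAX8, a transcription factor of secretory cells, averaged 33.0 FPKM over the 12 libraries, while OVGP1, the oviduct glycoprotein of secretory cells, averaged 0.428 FPKM. FOXJ1, the regulator of motile cilia, was near absent at 0.0343 FPKM. On the first principal component, which held 44.2% of the variance, the libraries numbered 3 at 0, 3.5 and 5.5 h lay between 50.0 and 57.1 and those numbered 1 and 2 between -29.3 and -13.3. The 1.5 h library numbered 3 lay at 5.26, apart from the other libraries of its number, and leaving it out moved the differences of 75 of 134 genes taken as examples by more than 1.5 times.

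Very few genes differed beyond the spread between libraries. In edgeR's quasi-likelihood test, fitted on all 12 libraries with the number as a block, 1 of 12025 genes, 0.00832%, passed an adjusted p of 0.05 (Benjamini-Hochberg). That gene was higher at 5.5 h. At an unadjusted p under 0.05 there were 972 genes, 8.08% of those tested, of which 489 were higher and 483 lower. DESeq2 with the same block called 9 genes, 0.0748%, 4 higher and 5 lower, and without the block 2 genes, of which 1 was among the 9. One of the 4 higher, ENSOARG00000010963, was at 0 CPM in all of the 6 compared libraries but the 5.5 h library numbered 2, at 7.10 CPM, and was not called by edgeR (unadjusted p = 0.197). Over the intervals within this span, which share its libraries, edgeR called 0 genes (0.0%). From 1.5 h to 3.5 h, 5.12% of genes had an unadjusted p under 0.05 and 0.0582% were called by DESeq2, and from 3.5 h to 5.5 h these shares were 2.21% and 0.0333%. The median log2 difference over all genes was 0.00, and 14.3% of genes were higher and 13.1% lower in 3 of 3 pairs. "Higher" and "lower" below describe values, and a gene is said to have risen or fallen only where it passed the test.

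CXCR4, the receptor of the chemokine CXCL12, stood second among all genes by p and was lower at 5.5 h. It lies on chromosome 2 at 173602065 to 173605247 in the coordinates of the authors' table (ENSOARG00000010462), whose genome build is not given in the sources used here. Its level was 172, 166 and 161 CPM (counts scaled to a common library size by TMM) at 1.5 h and 94.2, 129 and 93.3 CPM at 5.5 h. Every 5.5 h library lay below every 1.5 h library, a separation in that direction shown by 2.8% of all genes. The log2 difference was -0.68 ± 0.09 (SE), with -0.87, -0.37 and -0.79 in the pairs numbered 1 to 3, and the adjusted p was 0.185 in edgeR. DESeq2 with the block called it (adjusted p = 7.39e-07), and edgeR called it without the 1.5 h library numbered 2 (adjusted p = 0.0221, log2 difference -0.80). It was not called by DESeq2 without the block (adjusted p = 0.545), by edgeR without the block (adjusted p = 1) or with the 6 libraries alone (adjusted p = 0.823), or in the other leave-outs (adjusted p = 0.285 to 0.979). Its difference lay between -0.83 and -0.59 in all leave-outs. Before oestradiol the 3 libraries held 80.6, 95.0 and 70.4 CPM. All 3 levels at 1.5 h were thus above all those at 0 h and at 5.5 h. The 5.5 h and 0 h ranges overlapped, but within every number CXCR4 was higher at 5.5 h than at 0 h. That log2 difference was 0.36 ± 0.09 (edgeR, adjusted p = 0.7). Per length, its level averaged 144 ± 5.89 FPKM at 1.5 h and 93.0 ± 17.5 FPKM at 5.5 h (SD, n = 3).

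CYP1B1, a cytochrome P450 that hydroxylates oestradiol, had the widest difference among the 4 marker genes. It lies on chromosome 3 at 85950947 to 85956168 (ENSOARG00000009090). Its level was 20.2, 42.4 and 24.5 CPM at 1.5 h and 8.91, 19.7 and 4.61 CPM at 5.5 h. All 5.5 h libraries were below all 1.5 h libraries, though the highest of them, at 19.7 CPM, came close to the lowest 1.5 h library. The pair differences on the log2 scale were -1.18, -1.11 and -2.40. The fitted difference of -1.75 ± 0.59 did not pass the test (edgeR, adjusted p = 0.598), and it was -0.81 without the 1.5 h library numbered 3.

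The deposited counts and FPKM of CYP1B1 disagree in 2 libraries outside the comparison, which bears on its fitted error. In the 0 h library numbered 3 the table holds 31 counts beside 6.89 FPKM, where the ratio of counts to FPKM in the gene's other libraries gives 0.328 FPKM. In the 3.5 h library numbered 2 it holds 1657 counts beside 9.51 FPKM, against 17.1 FPKM from the counts. Among 11501 genes with at least 20 counts in every library, only CYP1B1 and the calgranulin genes S100A8, S100A9 and S100A12 had any value that departed from its own counts by more than 1.3-fold. The 6 CYP1B1 values of 1.5 h and 5.5 h are not among them. Without those 2 libraries, an alternative chosen after the data were seen, its difference was -1.62 (edgeR, adjusted p = 0.67), and on log2(FPKM + 1) with limma it was -1.33 (adjusted p = 0.578). How these values arose was not tested, and the 0 h and 3.5 h levels of CYP1B1 are not read further.

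TIPARP, the ADP-ribosyltransferase that the aryl hydrocarbon receptor induces, lies on chromosome 1 at 229025389 to 229050958 (ENSOARG00000002923). It held 333, 383 and 468 CPM at 1.5 h and 289, 318 and 292 CPM at 5.5 h, again with no overlap. The pair numbered 3 differed most, by -0.68, against -0.21 and -0.27 in the others. The fitted log2 difference was -0.40 ± 0.13 (edgeR, adjusted p = 0.598) and -0.19 without the 1.5 h library numbered 3. At 0 h the mean was 287 CPM and at 3.5 h 306 CPM, both near the 5.5 h mean.

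Among 18 tested genes of the aryl hydrocarbon receptor pathway, 11 were lower and 7 higher at 5.5 h. The median was -0.06, and none was called. An unadjusted p under 0.05 was reached by 5 of the lower and 0 of the higher genes, where 4.02% of all genes were lower at that level. These 5 were CYP1B1, TIPARP, CYP1A1, CYP1A2 and CYP2S1, all but TIPARP being cytochrome P450 enzymes. CYP1B1 and TIPARP are markers set for this comparison, and the list was chosen with earlier results of these data known. The 5 beside 4.02% are therefore no independent test. CYP1A1 held 14.8, 30.3 and 14.1 CPM at 1.5 h and 10.6, 18.8 and 5.87 CPM at 5.5 h, and was lower in 3 of 3 pairs with overlapping groups (log2 difference -0.85 ± 0.32). CYP1A2 held 4.95, 10.9 and 5.68 CPM at 1.5 h and 4.17, 6.55 and 1.14 CPM at 5.5 h (-0.998 ± 0.392). CYP1A1 and CYP1A2 are adjacent, similar genes on chromosome 18, so reads may be shared between them. CYP2S1, at 1.98 to 3.73 CPM at 1.5 h and 0.877 to 3.19 CPM at 5.5 h, differed least in the pair numbered 3, by -0.23. The receptor gene AHR itself was not lower throughout, with pair differences of 0.29, -0.07 and -1.02, and NQO1, an oxidoreductase that the pathway also induces, was higher by 0.44 ± 0.24, with 0.12 to 0.74 over the leave-outs. CYP1A1 differed by -0.53 when the 1.5 h library numbered 3 was left out.

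**Figure D1:**
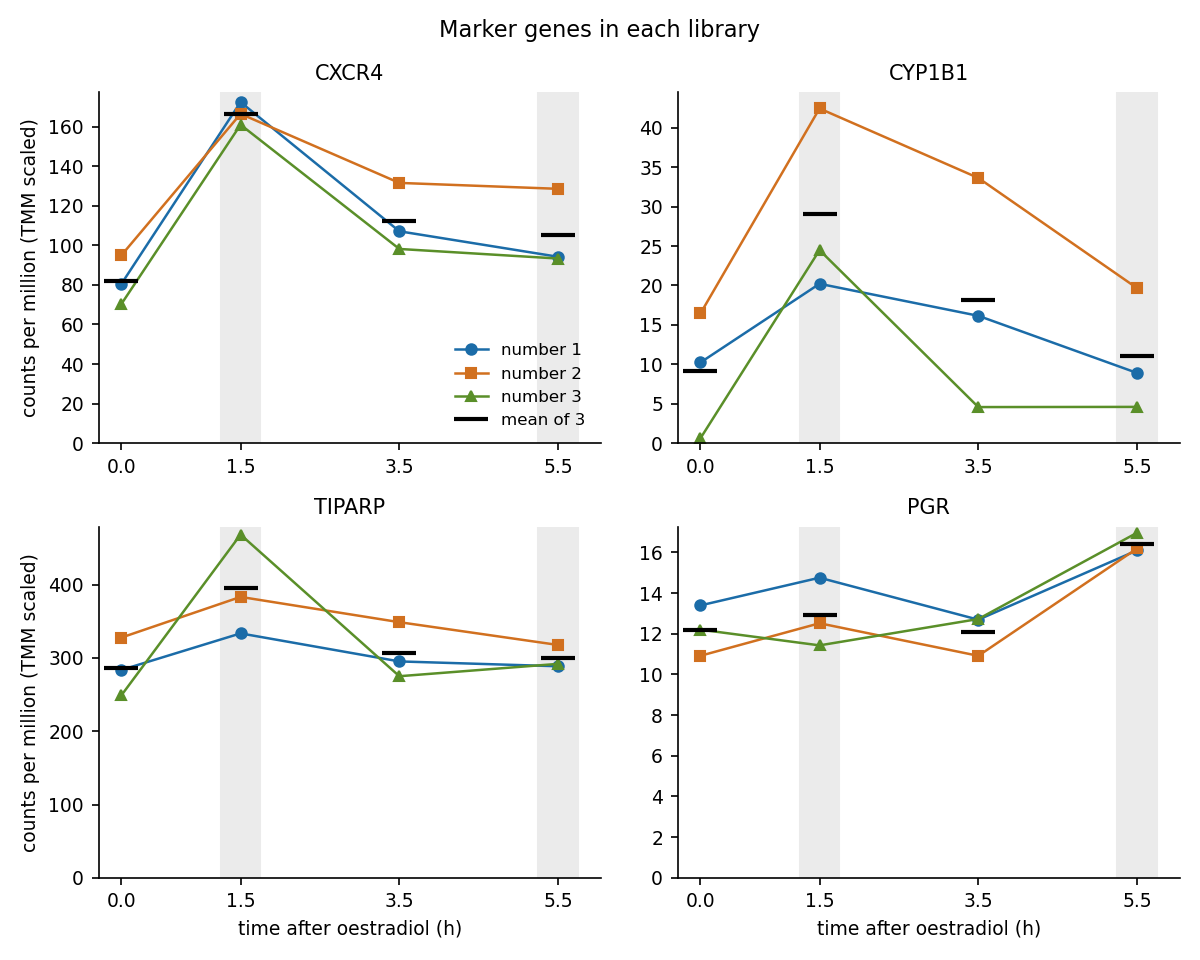
CPM (vertical axis, from 0) of CXCR4, CYP1B1, TIPARP and PGR at 0, 1.5, 3.5 and 5.5 h after oestradiol, with 1 line per number and a bar for the mean of 3 libraries. In the shaded groups, all 5.5 h libraries lie below all 1.5 h libraries for the first 3 genes and above them for PGR. The 0 h and 3.5 h values of CYP1B1 include the 2 counts that disagree with the deposited FPKM.

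PGR, the progesterone receptor gene and a classical oestrogen target, was the marker with the opposite direction. It lies on chromosome 15 at 7462011 to 7513695 (ENSOARG00000007837, named here through RefSeq). Its level was 14.8, 12.5 and 11.4 CPM at 1.5 h and 16.1, 16.2 and 17.0 CPM at 5.5 h. The 5.5 h libraries all lay above the 1.5 h libraries, as did 3.47% of all genes, but by little in the pair numbered 1, which differed by 0.13 against 0.37 and 0.57. The fitted difference was 0.35 ± 0.12 (edgeR, adjusted p = 0.598) and 0.25 without the 1.5 h library numbered 3. The means at 0 h and 3.5 h were 12.2 and 12.1 CPM. Per length the level averaged 11.4 ± 1.56 FPKM at 1.5 h and 14.8 ± 0.586 FPKM at 5.5 h (SD, n = 3).

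The oestrogen receptor gene ESR1 held 7.02, 10.8 and 8.14 CPM at 1.5 h and 8.25, 9.10 and 10.7 CPM at 5.5 h. The groups overlapped, and the difference of 0.10 ± 0.22 changed sign when the pair numbered 3, its 1.5 h library or the 5.5 h library numbered 1 was left out. Over the 16 receptors, coregulators and pioneer factors tested, 10 were higher and 6 lower with a median of 0.06, and none was called. PAX8, a transcription factor of the oviduct epithelium, was lower in 3 of 3 pairs by -0.28 ± 0.10, and FOXA1, a pioneer factor, by -0.33 ± 0.24, the latter by -0.03 without the 1.5 h library numbered 3. NCOA1, a coactivator, was higher by 0.36 ± 0.16 but not in the pair numbered 2, and by 0.13 without the 1.5 h library numbered 3. Of 24 oestrogen target genes tested, 15 were higher and 9 lower, with a median of 0.09 and none called. KCNK5, a potassium channel, was the target with the smallest p. It held 4.23, 1.91 and 5.95 CPM at 1.5 h and 5.34, 4.91 and 12.4 CPM at 5.5 h, higher in 3 of 3 pairs with overlapping groups (0.89 ± 0.24).

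The 1 gene that rose was ENSOARG00000001382, annotated as a copy of 60S ribosomal protein L9, a component of the large ribosomal subunit. It spans 579 bases on chromosome 4, from 110603406 to 110603984. It held 9.51, 8.97 and 12.5 CPM at 1.5 h and 21.1, 36.9 and 31.2 CPM at 5.5 h, with every 5.5 h library above every 1.5 h library. The log2 difference was 1.51 ± 0.16 (edgeR, adjusted p = 0.0286), with 1.15, 2.04 and 1.32 in the pairs. The 3.5 h libraries, which also entered the fit behind this test, held 23.3, 26.6 and 27.3 CPM. Against 1.5 h the log2 difference there was 1.32 ± 0.15 (edgeR, adjusted p = 0.0874), and DESeq2 with the block called it.

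This call is uncertain, because 5 loci in the table carry the L9 annotation and reads may be shared between them. How alike their sequences are, and how reads were assigned to them, was not tested. A copy on chromosome 9, ENSOARG00000020156, held 40.4, 14.2 and 14.5 CPM at 1.5 h and 35.1, 88.7 and 99.4 CPM at 5.5 h. A copy on chromosome 6, ENSOARG00000000241, went the other way, from 166, 166 and 245 CPM to 148, 55.4 and 104 CPM. DESeq2 with the block called this copy as lower (adjusted p = 0.0237), beside the copy that rose, but did not call it without the block. RPL9 itself, the source of most of these counts, held 737, 599 and 775 CPM at 1.5 h and 668, 600 and 788 CPM at 5.5 h, with overlapping groups. The 5 loci together summed to 956, 790 and 1048 CPM at 1.5 h and 875, 782 and 1025 CPM at 5.5 h, so the total overlapped while its division between loci differed. The copy that rose held 0.995 to 1.19% of all L9 counts at 1.5 h and 2.41 to 4.71% at 5.5 h. Its call was also lost without the block (edgeR, adjusted p = 0.218) and with the 6 libraries alone (adjusted p = 0.823), at similar differences of 1.53 and 1.50.

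**Figure D2:**
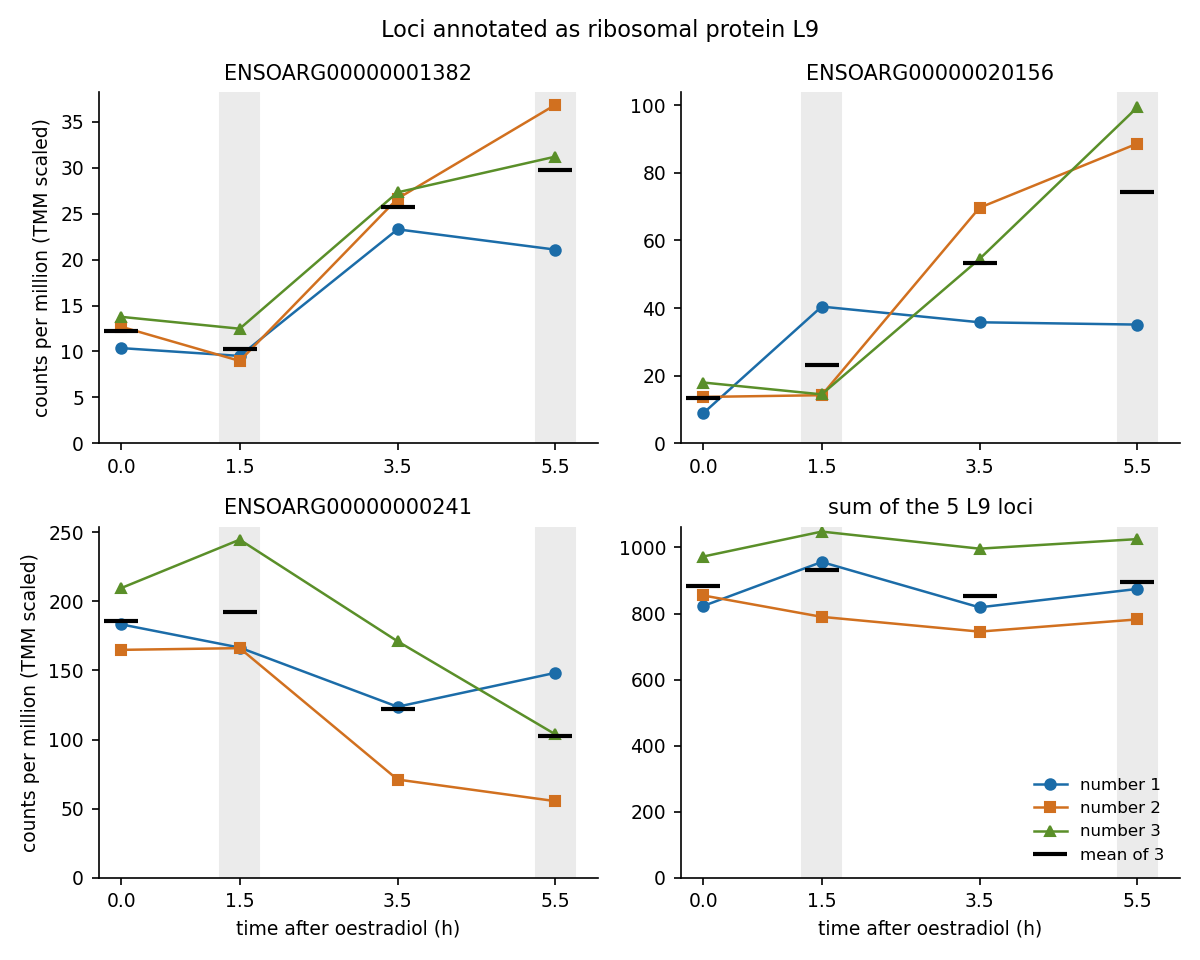
CPM (vertical axis, from 0) of 3 copies annotated as ribosomal protein L9 and of the sum of the 5 L9 loci, by time after oestradiol, with 1 line per number and a bar for the mean of 3. From 1.5 h to 5.5 h the copy ENSOARG00000001382 is higher in every pair and ENSOARG00000000241 lower in every pair, while the sums of the 2 groups overlap.

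HS3ST1, a heparan sulfate sulfotransferase, followed CXCR4 by p among the genes that were lower. It held 50.1, 26.9 and 14.2 CPM at 1.5 h and 32.0, 19.8 and 9.44 CPM at 5.5 h. The levels of the 3 numbers differed widely, so the groups overlapped, but the pair differences of -0.65, -0.45 and -0.58 were alike. The fitted difference was -0.56 ± 0.10 (edgeR, adjusted p = 0.598), and DESeq2 called it with the block (adjusted p = 0.00905) but not without it (adjusted p = 1). GDF15, a stress-induced ligand of the TGF-beta superfamily, held 26.9, 33.6 and 15.99 CPM at 1.5 h and 17.5, 21.7 and 5.03 CPM at 5.5 h. Its pairs differed by -0.62, -0.63 and -1.66, and DESeq2 called it with the block (adjusted p = 0.0454) but not without it (adjusted p = 1). Its fitted difference of -0.96 became -0.62 when the pair numbered 3 was left out and -0.74 when its 1.5 h library alone was.

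NBL1, a secreted antagonist of bone morphogenetic proteins, held 20.8, 17.0 and 16.2 CPM at 1.5 h and 15.2, 12.1 and 8.16 CPM at 5.5 h, with no overlap. RASSF10, a Ras association domain protein, held 14.6, 17.0 and 11.6 CPM and then 10.8, 9.24 and 7.47 CPM, also with no overlap. TCTN1, a protein of the ciliary transition zone, held 31.6, 29.8 and 26.8 CPM and then 25.4, 23.7 and 18.1 CPM. These 3 genes, C12orf49, NDUFA3 and CXCR4 were those of the 12 lower genes chosen by p whose groups did not overlap. Among all genes 2.8% were separated in this direction, and choosing genes by p on the same values favours such separation. C12orf49, a regulator of sterol-responsive transcription factors, was lower by -0.48 ± 0.11, and NDUFA3, a subunit of respiratory complex I, by -0.32 ± 0.08. The remaining lower genes, ZSCAN2, DCLK3, NOP10 and FEZ1, differed by -0.74 to -0.38. NOP10 is a small protein of the particles that modify ribosomal RNA, and FEZ1 an adaptor for axonal transport. Each of these genes was lower in 3 of 3 pairs because the rule that named them required it.

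ANKRD27, an endosomal Rab effector, had the smallest p of the 11 genes chosen among those higher and held 34.3, 39.9 and 38.2 CPM at 1.5 h and 46.2, 48.6 and 54.5 CPM at 5.5 h. Its groups did not overlap, and its pair differences of 0.43, 0.29 and 0.51 were close to each other. APPL1, an endosomal adaptor of adiponectin and insulin signalling, held 29.8, 32.9 and 33.7 CPM and then 40.4, 36.7 and 54.8 CPM, with no overlap. PRKAA1, a catalytic subunit of the energy sensor AMPK, held 41.7, 48.4 and 42.6 CPM and then 52.95, 51.7 and 55.0 CPM. It too did not overlap, at a difference of 0.27 ± 0.07. Among all genes 3.47% were separated in this direction, and choosing genes by p on the same values favours such separation.

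GCNT1, which builds branched O-glycans of mucins, had the widest difference of these genes. It held 8.98, 16.2 and 23.3 CPM at 1.5 h and 17.7, 18.8 and 45.7 CPM at 5.5 h, so the groups overlapped (0.70 ± 0.16). edgeR called it without the 1.5 h library numbered 2 (adjusted p = 0.0221, log2 difference 0.98). RGS2, which shuts off signalling by Gq proteins, held 41.6, 28.4 and 28.1 CPM and then 49.1, 39.9 and 56.4 CPM. THAP5, FAM83B, CASP8AP2 and OTUD4 did not overlap between groups, which the choice by p favours, and differed by 0.61, 0.50, 0.45 and 0.32. FAM83B differed by 0.32, CASP8AP2 by 0.31, THAP5 by 0.44 and OTUD4 by 0.30 when the 1.5 h library numbered 3 was left out. RGS2 went from 0.56 to 0.38 in that fit. CASP8AP2 takes part in the processing of histone transcripts, and OTUD4 is a deubiquitinase. ATAD2, a bromodomain protein of dividing cells, differed by 0.51, and POLH, the translesion DNA polymerase, by 0.33, both with overlapping groups. MYBL1, a MYB family transcription factor named here after its values were seen because DESeq2 called it with the block (adjusted p = 0.00496, against 1 without it), held 1.28, 1.14 and 2.86 CPM at 1.5 h and 2.69, 1.98 and 8.38 CPM at 5.5 h.

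**Figure D3:**
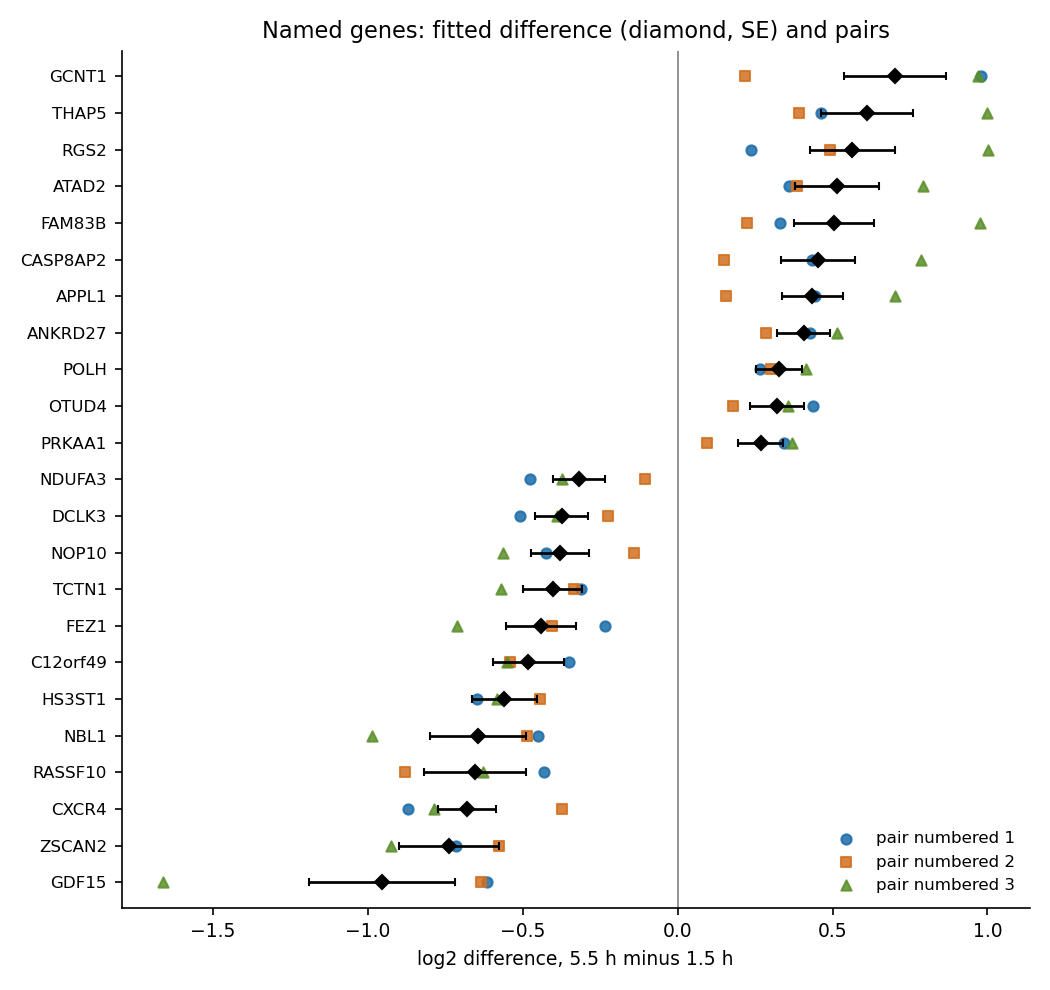
Log2 difference, 5.5 h minus 1.5 h, of 23 named genes that were not called, with the fitted value and its SE as a diamond and bar and the 3 pairs as coloured points. All points of a gene lie on 1 side of 0, which the rule for naming required, and the pair numbered 3 is the farthest from 0 for genes such as GDF15 and FAM83B.

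Of 9 chemokines and chemokine receptors tested, CXCR4 included, 6 were lower and 3 higher with a median of -0.08, and edgeR called none. Over the leave-outs the median ranged from -0.24 to 0.03. CCL2, which attracts monocytes, held 982, 809 and 1054 CPM at 1.5 h and 763, 606 and 229 CPM at 5.5 h. Its groups did not overlap, but the pair numbered 3 differed by -2.20 against -0.36 and -0.42, and the fitted difference of -0.97 ± 0.29 was -0.59 without the 1.5 h library of that number. CXCL8, a neutrophil attractant, held 378, 490 and 149 CPM and then 357, 420 and 65.0 CPM, again with the widest difference in the pair numbered 3, and CXCL16 differed by -0.43 ± 0.19. CXCL8 ranged from -0.70 to -0.16 over the leave-outs, and CXCL16 was -0.11 without the 1.5 h library numbered 3. Of 25 genes of NF-kB and cytokines, 20 were lower and 5 higher, with a median of -0.12 and pair medians of -0.18, 0.01 and -0.22.

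NFKB1, a subunit of NF-kB, was the member with the smallest p and had nearly equal pairs. It held 103, 115 and 113 CPM at 1.5 h and 85.3, 94.3 and 91.2 CPM at 5.5 h, with no overlap and pair differences of -0.27, -0.29 and -0.30. IL1A, an epithelial alarmin, held 20.7, 43.3 and 28.6 CPM and then 15.1, 27.8 and 11.9 CPM, lower in 3 of 3 pairs with overlapping groups. IL33, another alarmin, went the other way, by 0.50 ± 0.18. Leaving out the 1.5 h library numbered 3 gave -0.54 for IL1A and 0.27 for IL33.

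Of 28 immediate early genes, 16 were lower and 12 higher, with a median of -0.11 and pair medians on both sides of 0. IER3, an early response gene, differed by -0.45 ± 0.14 with almost no difference in the pair numbered 2, at -0.01. FOSL1, a subunit of AP-1, differed by -0.32 ± 0.12, and NR4A2, an orphan nuclear receptor, by 0.42 ± 0.19 with no overlap. Leaving out the 1.5 h library numbered 3 moved them to -0.19 for FOSL1 and 0.27 for NR4A2. Of 21 MAPK feedback genes, 14 were higher and 7 lower, with a median of 0.07. DUSP7, a phosphatase of ERK, did not overlap between groups, at 7.19 to 7.90 CPM at 1.5 h and 8.07 to 10.6 CPM at 5.5 h. None of the genes of these lists was called by edgeR.

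Genes of lipid synthesis were higher as groups. Of 25 genes of cholesterol synthesis and uptake, 24 were higher at 5.5 h and 1 lower, beside 50.8% of all genes higher, and the median was 0.27 beside 0.00 over all genes. In 3 of 3 pairs 15 of the 25 were higher, beside 14.3% of all genes. None was called, and 7 had an unadjusted p under 0.05, beside 4.07% of all genes. The medians of the pairs were 0.08, 0.13 and 0.59, so the size came mostly from the pair numbered 3. Without the 1.5 h library of that number, 22 of the 25 were higher and the median was 0.10. MSMO1, a sterol oxidase, held 356, 288 and 329 CPM at 1.5 h and 415, 321 and 563 CPM at 5.5 h, and MVD, a mevalonate pathway enzyme, differed by 0.27 ± 0.11. In both genes the groups overlapped and all 3 pairs were higher.

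Fatty acid synthesis followed the same counts, with 15 of 16 genes higher and a median of 0.27. Its pair medians were 0.09, 0.08 and 0.53, and leaving out the 1.5 h library numbered 3 gave 12 of 16 genes higher and a median of 0.08. ELOVL6, a fatty acid elongase, held 25.1, 22.8 and 31.9 CPM at 1.5 h and 30.1, 27.6 and 50.1 CPM at 5.5 h. ACACA, the enzyme of the committed step, was nearly equal in the pair numbered 2, at 57.0 and 58.2 CPM. LPIN1, a phosphatidate phosphatase, differed by 0.52 ± 0.19. Without the 1.5 h library numbered 3, ACACA differed by 0.17, LPIN1 by 0.26, MSMO1 by 0.16 and MVD by 0.13. For the cholesterol list the median difference was 0.24 from 1.5 h to 3.5 h and 0.05 from 3.5 h to 5.5 h, intervals that share libraries with the whole span.

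Cell division genes had the widest medians of the lists that are not cell type markers, and these rested on 1 pair. Of 38 mitosis genes, 35 were higher at 5.5 h, with a median of 0.36, but the pair medians were -0.10, 0.05 and 1.08. Of 41 DNA replication genes, 38 were higher, with a median of 0.34 and pair medians of 0.03, 0.14 and 0.75. Without the 1.5 h library numbered 3 the medians were 0.15 and 0.16, and 27 of 38 and 35 of 41 genes were higher. Without all libraries numbered 3 the medians were 0.01 and 0.08, and 20 of 38 and 31 of 41 genes were higher. CENPF, a kinetochore protein, held 10.6, 5.03 and 18.3 CPM at 1.5 h and 9.89, 7.44 and 58.6 CPM at 5.5 h. RFC4, a subunit of the clamp loader of replication, held 8.12, 6.48 and 12.0 CPM and then 8.96, 7.75 and 19.7 CPM. HMMR, CDC25B, POLA1 and CCNE2 also had their widest difference in the pair numbered 3, between 0.74 and 1.26. Without its 1.5 h library the difference was 0.35 for CENPF, 0.26 for CDC25B and 0.22 for POLA1.

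Markers of other cells moved in the same pair. The 8 tested fibroblast markers had a median of -0.87 and pair medians of -0.14, -0.06 and -2.14, and the 8 tested smooth muscle markers a median of -0.54 and pair medians of -0.05, 0.01 and -1.45. COL1A1, a fibrillar collagen chain, held 47.1, 30.4 and 51.6 CPM at 1.5 h and 39.5, 28.0 and 15.4 CPM at 5.5 h. CNN1, a contractile protein of smooth muscle, held 32.1, 69.1 and 117 CPM and then 30.6, 71.9 and 7.77 CPM. Without the 1.5 h library numbered 3 the list medians were 0.11 and 0.08. Over all 16 fibroblast markers in the table, the summed level ranged from 2353 to 2825 CPM at 1.5 h and from 1519 to 2875 CPM at 5.5 h, and over 14 smooth muscle markers from 2303 to 4327 CPM and from 1751 to 3227 CPM. DES, a defining smooth muscle marker, was near 0 and below the FPKM filter. The part of other cells in the lipid and cell division values was not tested.

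Summed levels of the other marker lists overlapped between the times. The 17 epithelial markers summed to 15147 to 20128 CPM at 1.5 h and 15307 to 19015 CPM at 5.5 h, and the 14 secretory markers to 24592 to 30149 and 22609 to 29834 CPM. The 23 ciliated markers summed to 45.1 to 65.4 and 40.5 to 63.9 CPM, the 16 immune markers to 89.1 to 113 and 70.6 to 106 CPM, and the 11 endothelial markers to 89.8 to 236 and 124 to 250 CPM. Of the ciliated list 5 of 23 genes passed the FPKM filter and of the immune list 4 of 16, with PTPRC, the pan-leukocyte marker, below it.

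**Figure D4:**
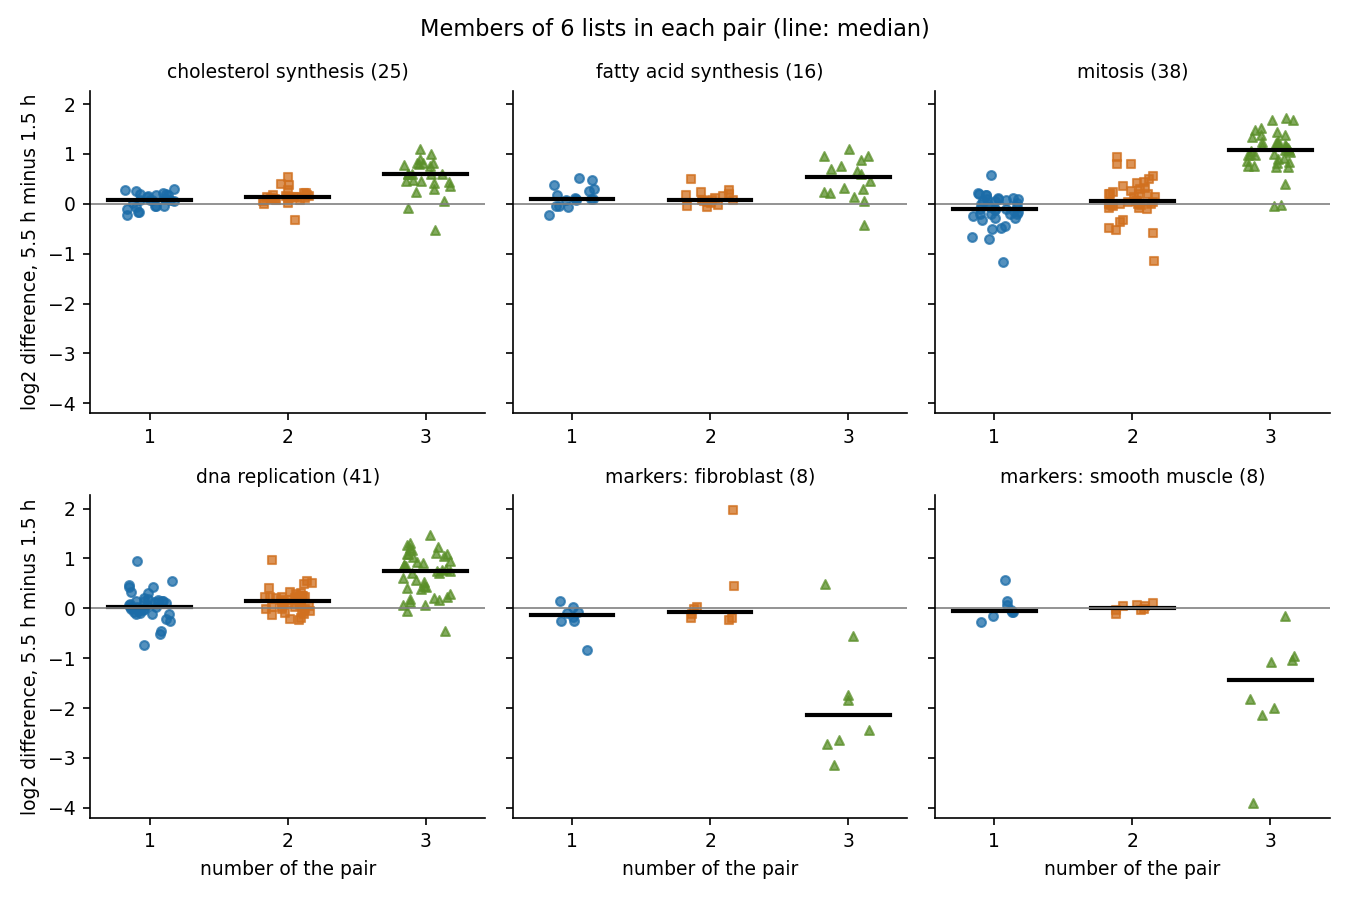
Log2 difference, 5.5 h minus 1.5 h, of each tested member of 6 lists (number of members in brackets) in the pairs numbered 1 to 3, with a line at the median. The pair numbered 3 stands apart in all 6 lists, upwards for lipid synthesis and cell division and downwards for fibroblast and smooth muscle markers, while the medians of pairs 1 and 2 lie within 0.15 of 0.

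Genes of TGF-beta signalling and matrix were lower in 22 of 33 cases, with a median of -0.15 and pair medians of -0.01, -0.04 and -0.57. TGFB1, the prototype ligand, held 107, 87.1 and 68.0 CPM at 1.5 h and 87.9, 82.1 and 45.7 CPM at 5.5 h, lower in 3 of 3 pairs. TGFB2 and TGFBI differed mostly in the pair numbered 3, by -1.60 and -0.91. Without the 1.5 h library of that number the list's median was -0.04, and TGFB1, TGFB2 and TGFBI differed by -0.17, -0.19 and -0.15. Without all libraries numbered 3 the median was 0.01, with 17 of 33 genes higher, and these 3 genes differed by -0.19, -0.08 and -0.05. Interferon-induced genes were lower in 18 of 29 cases (median -0.10). DTX3L, a ubiquitin ligase of that list, held 16.6, 18.7 and 18.6 CPM and then 20.3, 22.2 and 23.6 CPM, higher with no overlap, and IFI35 and IFIH1 differed by -0.22 and -0.26, or by -0.13 and -0.16 without the 1.5 h library numbered 3.

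Mucosal defence genes were higher in 11 of 17 cases (median 0.11), with none at an unadjusted p under 0.05, and without the 1.5 h library numbered 3 the median was -0.12. TLR4, a receptor of bacterial lipopolysaccharide, did not overlap, at 38.8 to 42.1 CPM at 1.5 h and 44.3 to 54.4 CPM at 5.5 h, but its difference of 0.23 was 0.08 without that library. The calgranulins S100A8, S100A9 and S100A12, whose counts and FPKM disagree in the 1.5 h library numbered 1, differed by 0.43, 0.20 and 0.46 on the counts and by 1.096, 0.64 and 1.50 on log2(FPKM + 1) with limma. The S100A12 FPKM of that library was 36.5, against 166 from its 3198 counts. Neither source gave a call for them (adjusted p of 0.739 or above in edgeR and 0.578 in limma).

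**Figure D5:**
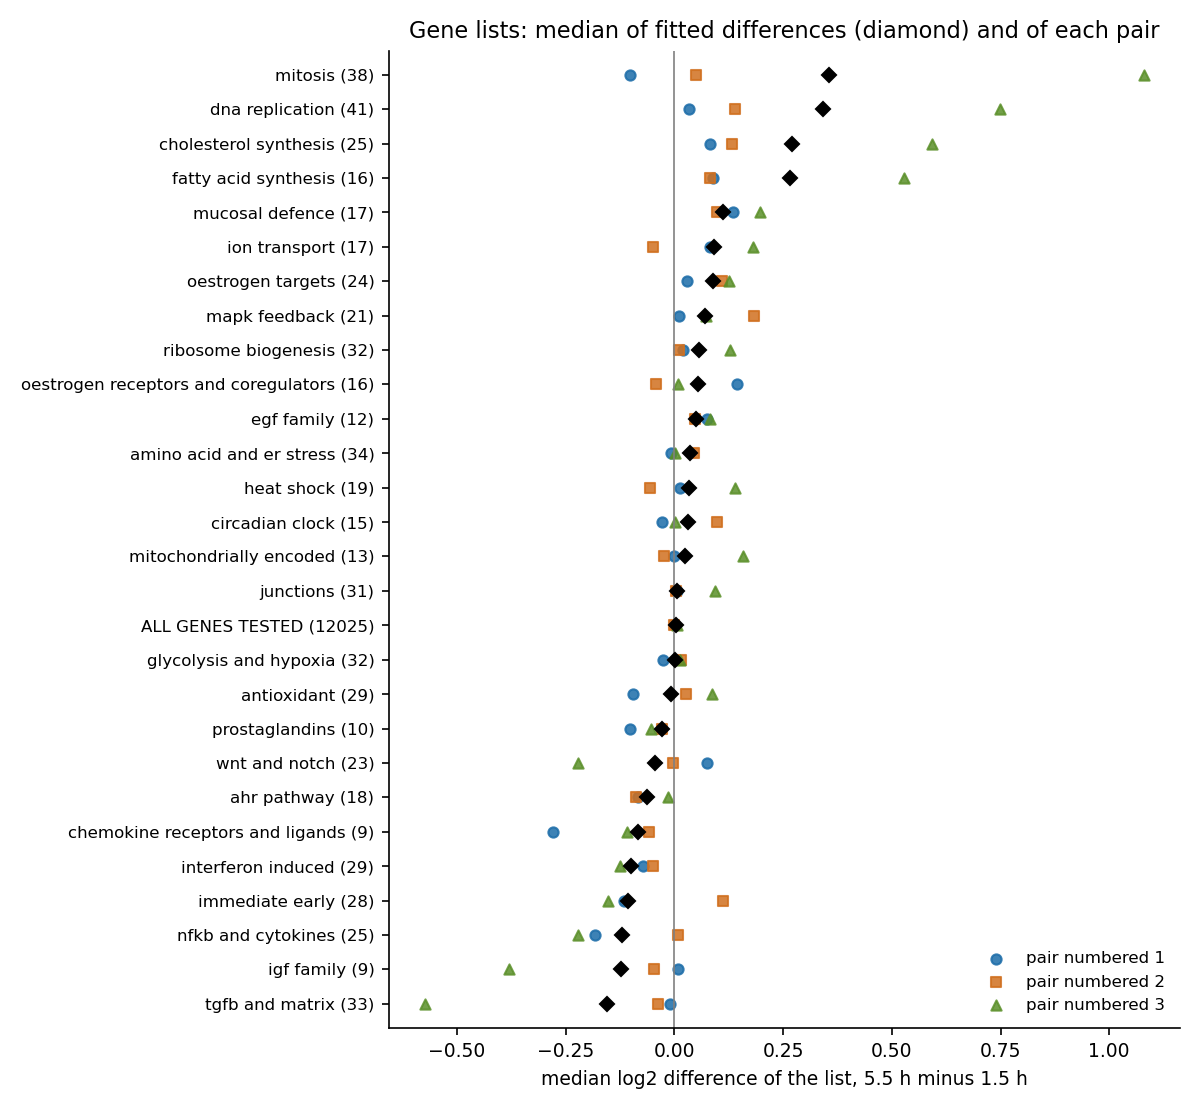
Median log2 difference, 5.5 h minus 1.5 h, of the gene lists described here that are not cell type markers, with the number of tested genes in brackets, as a diamond for the fitted values and coloured points for the pairs. Mitosis, DNA replication and the lipid synthesis lists lie highest and TGF-beta and matrix genes lowest, in each case with the pair numbered 3 farthest from the median of 0.00 over all genes.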

How the data were processed

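Cells of 4 groups with 3 libraries each were profiled by RNA-seq. The authors deposited a table of raw counts and FPKM per gene, per the file headers. TopHat2 2.0.9 and Cufflinks are listed, per the submitters' processing notes. No source used here gives their roles, a counting tool, a strand setting or a genome build. The table lacked a symbol for 4788 of its 18340 genes, and RefSeq gave one for 1145 of them. Per-sample columns in other tables, 54 in all, were not used.

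The deposited counts were tested with edgeR 4.0.16 (TMM, glmQLFit and glmQLFTest, R 4.3.3) on all 12 libraries with the number as a block, leaving 6 residual degrees of freedom, and p-values were adjusted by Benjamini-Hochberg over 12025 genes. The contrast was 5.5 h minus 1.5 h. CPM used TMM-scaled totals, and pair differences were taken on log2 CPM after adding a prior count (2). A count of 3 equals 0.0373 to 0.0609 CPM. Same-numbered libraries deviated together, with correlations of 0.218 to 0.705 in all 18 pairs against -0.600 to 0.331 in the 36 others, so the numbers were taken as pairs. No 2 libraries of the 1.5 h or of the 5.5 h group agreed within counting noise. Deposited FPKM were compared with the counts, and limma 3.58.1 on log2(FPKM + 1) and DESeq2 served as alternatives. The edgeR steps were tested on simulated data.

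Named genes were the 4 markers, every called gene, up to 12 genes in each direction by p among those with a symbol, a mean of at least 5 CPM and the same direction in 3 of 3 pairs, the 3 list members with the smallest p, and any receptor, aryl hydrocarbon receptor pathway or chemokine gene. The genes, the lists and the comparison were chosen with earlier results of these data known. Some list members are not reported here.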

Additional observations from a re-analysis of the deposited data

How the results depend on the processing

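The count of called genes, 1 with edgeR and the block, was 1 as well with DESeq2's size factors, with no filter, with a mean FPKM of at least 5 and with limma on log2(FPKM + 1) or log2(FPKM + 0.1). It was 0 with no replicate block and 0 with the 6 libraries alone, 9 with DESeq2 and the block and 2 with DESeq2 without it, at 210, 412, 1136 and 262 genes of unadjusted p under 0.05. Leaving out 1 number or 1 library of the comparison gave 0 to 3 calls, with 0 when number 2, the 1.5 h library of number 3, or the 5.5 h library of number 2 or 3 was left out, and 0 without the 2 libraries in which CYP1B1 values disagree. The L9 copy kept a difference of 1.23 to 1.68 throughout these leave-outs and lost its call in most of them. From 1.5 h to 3.5 h edgeR called 0 genes and DESeq2 7, and from 3.5 h to 5.5 h edgeR called 0 and DESeq2 4, with 616 and 266 genes at an unadjusted p under 0.05 in edgeR. With DESeq2, dropping the block ended 8 of its 9 calls, CXCR4, HS3ST1, GDF15 and MYBL1 among them, and added 1.

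Of 134 genes named or taken as list examples, 99 moved by over 1.5 times in at least 1 leave-out. Signs reversed only in leave-outs, and in 14 of the 134. Over the leave-outs the differences ranged from -0.874 to 0.0377 for SLPI, -0.71 to 0.015 for IGFBP2, -0.297 to 0.0444 for AKR1B1, -0.228 to 0.15 for ZMYND10, -1.20 to 0.000978 for COL1A2, -1.33 to 0.0707 for COL1A1, -2.90 to 0.19 for CNN1, -0.592 to 0.00945 for EMCN, -0.00491 to 0.429 for CDH5, -0.0398 to 0.842 for S100A8, -0.22 to 0.579 for S100A9, -0.12 to 1.08 for S100A12, -0.12 to 0.324 for ESR1 and -0.566 to 0.11 for AHR. Each of the 14 reversed without the 1.5 h library numbered 3. The cause was not tested. With 3 pairs and 6 residual degrees of freedom, small differences are not detectable. Wide differences were not always called either, as for CYP1B1 at -1.75 ± 0.59. A gene that was not called is not shown to be unaltered.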

Other observations

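Other gene groups were close to the median of all genes, and edgeR called no member of them. Prostaglandin genes were divided 5 to 5, but PTGES, which makes prostaglandin E2, held 9.39, 6.30 and 9.77 CPM at 1.5 h and 5.47, 5.52 and 1.70 CPM at 5.5 h, with no overlap (-1.19 ± 0.37). Most of that difference was in the pairs numbered 1 and 3, at -0.78 and -2.50 against -0.19, and without the 1.5 h library numbered 3 it was -0.60. Among 17 ion transport genes, KCNQ1, a potassium channel, differed by -0.94 ± 0.31 and KCNK5 by 0.89 ± 0.24, in opposite directions, with KCNQ1 at -0.47 without that library. Of 23 Wnt and Notch genes, TCF7L2, a transcription factor of Wnt signalling, held 8.93, 8.37 and 9.57 CPM and then 10.8, 9.80 and 12.8 CPM with no overlap, while the ligand WNT4 differed by -0.73 ± 0.28.

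Of 15 clock genes 10 were higher, CLOCK by 0.23 and CRY1 by 0.42 (0.28 without that library), and BHLHE41, a repressor of the clock, was lower by -0.35. The apoptosis inhibitors BIRC2 and XIAP were higher by 0.32 and 0.38, BIRC2 by 0.19 without that library. Antioxidant genes were divided 14 higher to 15 lower. GCLC, which catalyses the first step of glutathione synthesis, did not overlap, at 34.0 to 45.9 CPM at 1.5 h and 47.3 to 51.6 CPM at 5.5 h.

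The medians of the remaining lists lay between -0.12 and 0.06. They were 0.00 for 32 glycolysis and hypoxia genes, 0.03 for 19 heat shock genes, 0.04 for the list of amino acid and ER stress responses, 0.06 for 32 ribosome biogenesis genes, 0.05 for 12 EGF family genes, -0.12 for 9 IGF family genes, 0.01 for 31 junction genes and 0.02 for 13 mitochondrially encoded genes.

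For the 4 genes whose deposited FPKM departed from their counts, the FPKM of the 0 h library numbered 3 lay close to the mean of the other 0 h libraries. For CYP1B1 it was 6.890 FPKM beside a mean of 6.892 FPKM, and for S100A8, S100A12 and S100A9 it lay within 0.0158%, 0.0657% and 0.392% of that mean. Of 9791 genes above 1 FPKM at 0 h whose highest and lowest libraries differed by more than 1.1-fold, 51 lay within 0.392%. How this arose was not tested, and the tests above used the counts.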
